A study of Mus musculus with 9 samples.

Results

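The genes described here are 10 enzymes and redox proteins of the thioredoxin, peroxiredoxin and quinone defence: *Txnrd1*, *Txn1*, *Srxn1*, *Prdx1*, *Prdx2*, *Prdx3*, *Prdx6*, *Nqo1*, *Cat* and *Sod1*. They were chosen by symbol. All 10 were found, once each, among the 15820 entries with a symbol in a table of 22013 entries, and all 10 passed the filter on low values in each comparison. The values come from RNA-seq of whole mouse lenses collected in the embryo at E16.5, on an ICR background. Control lenses were *Mafg*+/-:*Mafk*+/-, so they too lacked 1 copy of each gene and no wild-type lens is included. Compound KO lenses were *Mafg*-/-:*Mafk*+/- and double KO lenses were *Mafg*-/-:*Mafk*-/-, both from germline deletion, and each genotype has 3 libraries, each from 8 pooled lenses. The question asked of the 10 genes is how their RNA differs between these genotypes.

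Mafg and Mafk are small Maf proteins, transcription factors without an activation domain of their own. As partners of Nrf2 they activate, and as partners of Bach1 they repress, genes that carry an antioxidant response element. In the thioredoxin cycle, thioredoxin reductase (*Txnrd1*) uses NADPH to reduce thioredoxin (*Txn1*), which in turn reduces the peroxiredoxins that break down hydrogen peroxide. Sulfiredoxin (*Srxn1*) repairs peroxiredoxins whose active cysteine has been over-oxidized. Oxidative damage to lens proteins is a known feature of cataract, and the lens keeps strong antioxidant defences.

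The promoters of these genes bear on the comparison because the factors removed here act at the antioxidant response element. Its core, TGACNNNGC, was searched on both strands from 250 bases before to 50 bases after each start site in RefSeq promoters (GRCm38.p6). Promoters were found for 9 of the 10 genes, all but *Prdx6*. Of these 9 genes, 4 held the core in at least 1 promoter, against 14.0% of all 27025 genes. By promoter, 4 of 11 held it, against 12.4% of all 32851 promoters. The longer small Maf site, TGCTGANTCA, was in none of the 9, in 0.492% of all genes and in 0.423% of all promoters. The stretches that hold the core are printed so that the elevated genes can be compared with the others, in the direction of the gene, with the core in capitals. In each of the 4 the core lies on the opposite strand and so reads backwards. Each stretch matched GRCm39 at 1 place, on the plus strand.
Srxn1, chr2:151947462-151947490, core from 29 bases after the start: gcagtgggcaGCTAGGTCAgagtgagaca
Txnrd1, chr10:82694918-82694986, in 1 of its 3 promoters, core from -92: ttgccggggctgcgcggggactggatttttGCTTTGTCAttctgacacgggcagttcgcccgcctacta
Prdx1, chr4:116542633-116542701, core from -133: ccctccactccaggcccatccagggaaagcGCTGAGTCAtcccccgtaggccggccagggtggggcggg
Sod1, chr16:90017564-90017632, core from -56: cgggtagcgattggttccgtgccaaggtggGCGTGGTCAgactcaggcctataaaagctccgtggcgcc
These matches are letters in a window and say nothing of binding.

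The authors' normalized CPM (counts relative to the library total, scaled by 1 factor per library) added up to between 728036 and 1131184 per library, and since the number of reads is unknown, no counting error is given. *Mafg* was at 112.9 to 134.5 normalized CPM in control, 10.1 to 24.1 in compound KO and 21.2 to 26.2 in double KO libraries, and *Mafk* was at 5.2 to 6.3, 4.3 to 5.3 and 0.0 to 0.6. Fiber cell markers, with summed values of 76779 to 125788 in the other 8 libraries, were at 38883 in compound KO replicate 1. That library stands apart: it was the highest of all 9 in 8 of 10 markers of periocular mesenchyme (sum 2308, at most 370.9 elsewhere), 8 of 8 of neural retina (520.5, at most 162.4), 6 of 6 of retinal pigment epithelium (699.8, at most 32.9) and 9 of 10 of skeletal muscle (382.4, at most 97.9). It was also highest in 3 of 8 endothelial markers. For the 10 genes, differences from control printed below that rest on it are given with and without it, except under other scalings, which were not refitted without it. Marker groups also moved with genotype. Neural retina markers summed to 24.1 to 80.1 in control, 93.3 to 520.5 in compound KO and 34.7 to 114.0 in double KO libraries. Fiber cell markers summed to 107586 to 125788, 38883 to 102236 and 76779 to 115588 in the same order. Compound KO replicates 2 and 3 also lay outside the control range in both sums, so leaving out replicate 1 does not remove this difference. Skeletal muscle markers summed to 3.1 to 5.3 in control, 21.2 to 382.4 in compound KO and 29.5 to 97.9 in double KO libraries, with 9 of the 9 tested above every control in double KO lenses. Macrophage markers summed to 13.6 to 17.4 in control, 29.7 to 37.1 in compound KO and 11.5 to 19.9 in double KO libraries. The 8 lens epithelium markers did not move together: 4 were above and 4 below control in double KO lenses (median log2 difference -0.04). Their sum, 3307 to 4017 in control and 1443 to 2636 in the knockout libraries, is mostly *Cryab*, an alpha crystallin, at 2533.8 to 3190.7 in control and 791.4 to 1869.4 in the knockout libraries. Erythroid markers summed to 2273 to 2754 in control, 1806 to 3954 in compound KO and 3418 to 4984 in double KO libraries. Of the 11 tested, 10 were above and 1 below control in double KO lenses. The 1 below was *Sptb*, a spectrin, at 1073.0 to 1273.0 in control and 993.6 to 1068.5 in double KO libraries, a large part of that sum. No marker in the table was at 0 in every library, and *Myh8*, a muscle myosin, was at 0.0 in 2 control libraries.

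In control lenses the 10 genes spanned a wide range of levels. Per kilobase of the GENCODE canonical transcript, *Prdx2*, a cytosolic peroxiredoxin, was highest at 141.0 normalized CPM per kb (range 134.0 to 146.0, n = 3). *Txn1* at 61.8 and *Prdx1* at 60.7 followed, with ranges that overlapped. Catalase (*Cat*), which splits hydrogen peroxide, was at 24.9 and the mitochondrial peroxiredoxin *Prdx3* at 23.0, and their ranges did not overlap. *Txnrd1* at 15.4, *Prdx6* at 13.5 and *Sod1*, the cytosolic superoxide dismutase, at 12.9 formed the next set, in which each overlapped its neighbour. *Srxn1* at 1.4 and the quinone reductase *Nqo1* at 0.973 were lowest and did not overlap. The authors' transcript lengths are not used here, so this order depends on the transcript chosen for each gene.

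*Txnrd1*, *Srxn1* and *Prdx6* were higher in all 6 libraries without *Mafg* than in any control library, the other 7 genes were not, and none of the 3 passed the adjusted threshold. *Txnrd1* (chromosome 10, 82669785 to 82733546, GRCm39) was at 53.1, 49.2 and 51.6 normalized CPM in control, 97.7, 70.8 and 68.3 in compound KO and 69.8, 61.7 and 61.7 in double KO replicates 1 to 3. The lowest knockout value lay above the highest control value, and compound KO replicate 1 was the highest. The means were 51.3 ± 1.97 (SD, n = 3) in control, 78.9 ± 16.3 in compound KO and 64.4 ± 4.68 in double KO lenses. On the log2(value + 1) scale, the double KO difference was 0.32 (SE 0.069, 95% interval 0.15 to 0.49, limma adjusted p = 0.231). The compound KO difference was 0.59 (SE 0.15, limma adjusted p = 0.481), and without compound KO replicate 1 it was 0.43 (adjusted p = 0.154).

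*Srxn1* (chromosome 2, 151947436 to 151957687) is the repair enzyme of the cycle and a known Nrf2 target. Its values were 9.1, 10.8 and 10.3 in control, 17.5, 12.4 and 19.0 in compound KO and 18.2, 18.1 and 12.3 in double KO libraries. In each knockout genotype, 2 libraries lay near 18 and 1 lay near 12, just above the control libraries. The means were 10.1 ± 0.874 in control, 16.3 ± 3.46 in compound KO and 16.2 ± 3.38 in double KO lenses (SD, n = 3), so both knockouts were about 1.6-fold above control. The log2 difference was 0.62 in double KO (SE 0.17, 95% interval 0.19 to 1.04, limma adjusted p = 0.321) and 0.63 in compound KO lenses (SE 0.18, limma adjusted p = 0.481). Without compound KO replicate 1, the latter was 0.57 (limma adjusted p = 0.417).

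*Prdx6* (chromosome 1, 161051417 to 161079098) encodes the 1-Cys peroxiredoxin, which also acts on phospholipid peroxides. It was at 33.6, 35.5 and 40.4 in control, 72.7, 46.3 and 55.1 in compound KO and 60.7, 48.1 and 49.8 in double KO libraries. Again the genotypes did not overlap with control, and compound KO replicate 1 was the highest of the 9. The means were 36.5 ± 3.51 in control, 58.0 ± 13.4 in compound KO and 52.9 ± 6.84 in double KO lenses (SD, n = 3). The log2 difference was 0.52 in double KO (SE 0.12, 95% interval 0.23 to 0.81, limma adjusted p = 0.250) and 0.63 in compound KO lenses (SE 0.18, limma adjusted p = 0.481), or 0.46 without compound KO replicate 1 (adjusted p = 0.329). No value of the related copy *Prdx6b* was used here, and how reads that match both were assigned is not given in the sources used here.

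**Figure D1:**
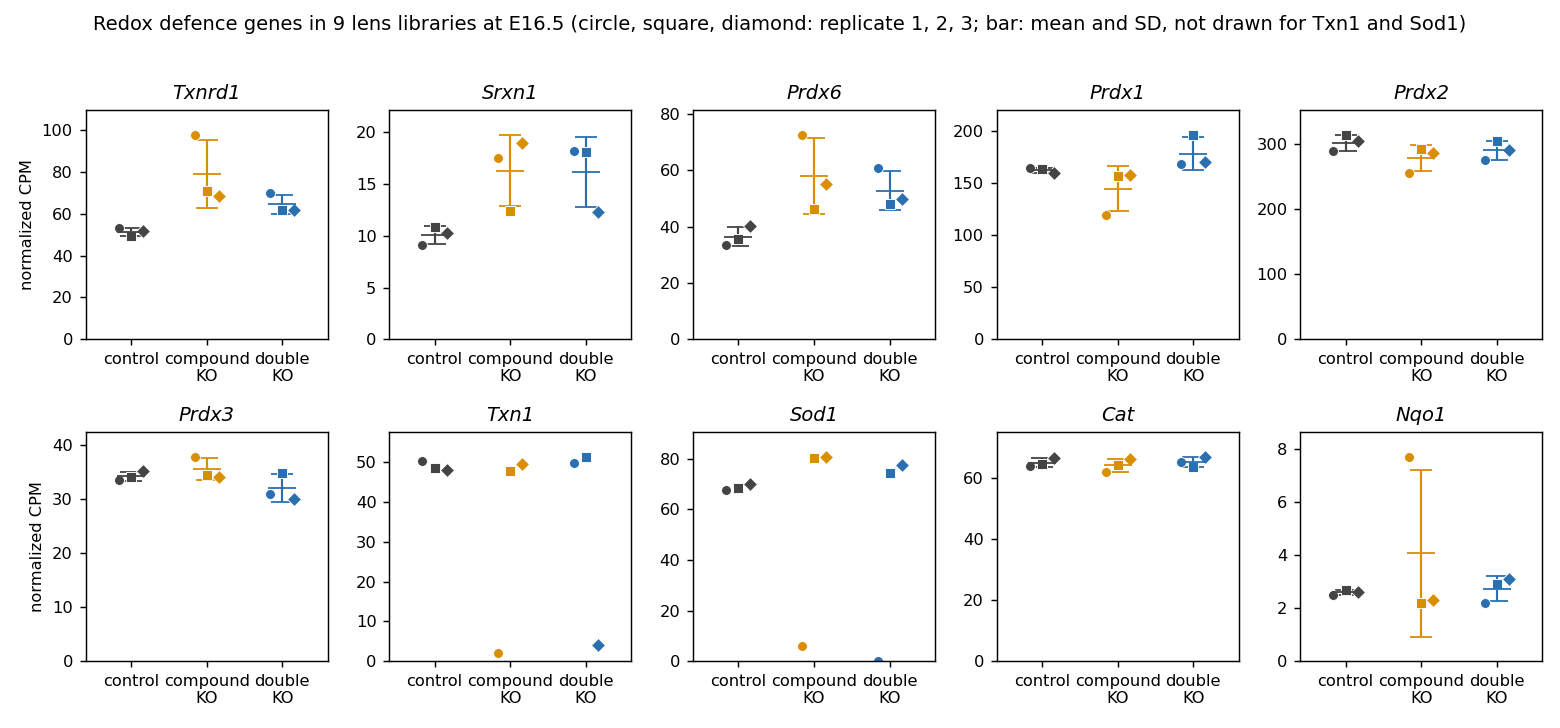
Normalized CPM (vertical axis, from 0, a separate scale per panel) of the 10 genes in each library by genotype, with the mean and SD of 3 libraries except for *Txn1* and *Sod1*. All 6 knockout values of *Txnrd1*, *Srxn1* and *Prdx6* lie above the 3 control values, *Cat* stays between 61.8 and 66.8, and *Txn1* and *Sod1* each drop in 2 single libraries.

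With the 6 *Mafg*-/- libraries pooled against the 3 controls, the log2 difference was 0.62 for *Srxn1* (SE 0.16, limma adjusted p = 0.385), 0.58 for *Prdx6* (SE 0.14, limma adjusted p = 0.339) and 0.46 for *Txnrd1* (SE 0.14, limma adjusted p = 0.445). Without compound KO replicate 1, these were 0.60 (limma adjusted p = 0.210), 0.50 (adjusted p = 0.0882) and 0.37 (adjusted p = 0.0584). All 3 genes were above every control in 6 of 6 libraries under this pooling. The muscle marker sum (upward) and *Cryab* (downward) given above separated the same libraries from control, and their part in these differences was not tested. In whole lenses a change in the number of cells of a type and a change in RNA per cell cannot be told apart.

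In double KO against control lenses, limma called 0 of the 10 genes (adjusted p no higher than 0.05, and at least 1.5-fold), where 0.361% of all 14122 genes were called, and 3 of the 10 (*Txnrd1*, *Srxn1* and *Prdx6*) had an unadjusted p of at most 0.05, against 9.97% of all genes. With that unadjusted p and 1.5-fold, 1 passed (*Srxn1*), against 2.83% of all genes, and 0 passed without control replicate 1, double KO replicate 1 or double KO replicate 2. In 4 genes every double KO library was above every control, against 7.78% of all genes. In compound KO against control lenses, limma called 0 of the 10 and 0% of all 14348 genes, and 3 (*Txnrd1*, *Srxn1* and *Prdx6*) passed the unadjusted p and 1.5-fold, against 5.34% of all genes. The same 3 passed the unadjusted p alone, against 9.30%. Without compound KO replicate 1 the count at the unadjusted p and 1.5-fold was 0, since the differences were then under 1.5-fold. Without control replicate 1 that count was 1. Of the 10, 3 were above every control, against 12.2% of all genes, and 1 (*Prdx1*) was below every control, against 11.7%. For the *Mafg*-/- libraries together, limma called 0 of the 10 against 0.110% of all 14578 genes, with 3 at an unadjusted p of at most 0.05, against 7.57%, and 1 of them (*Srxn1*) also at 1.5-fold, against 2.55%. The 3 genes that did not overlap upward compare with 2.68% of all genes. The knockout comparisons share their control libraries and are not independent. The median log2 difference of the 10 genes in double KO against control lenses was 0.025, beside 0.011 over all genes tested, so the set as a whole lay close to the middle.

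*Prdx1* (chromosome 4, 116532123 to 116558398), a cytosolic peroxiredoxin whose promoter holds the core, lay on either side of control in the 2 knockouts, without a call in any comparison. It was at 164.0, 163.0 and 159.5 in control, 119.6, 156.4 and 157.3 in compound KO and 168.0, 196.3 and 169.9 in double KO libraries. Every compound KO library was below, and every double KO library above, the control range, although by small margins in all but compound KO replicate 1 and double KO replicate 2. The log2 difference from control was 0.13 in double KO (95% interval -0.04 to 0.30, limma adjusted p = 0.630) and -0.18 in compound KO lenses (95% interval -0.48 to 0.13, limma adjusted p = 0.522), or -0.05 without compound KO replicate 1. The double KO minus compound KO difference was 0.31 (SE 0.14, limma adjusted p = 0.665) and 0.18 without compound KO replicate 1. Scaled by library totals alone, the compound KO difference from control was 0.078, on the other side of 0.

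The other peroxiredoxins stayed near control. *Prdx2* (chromosome 8, 85693354 to 85702350), also abundant in red blood cells, was at 288.3, 312.6 and 303.3 in control, 254.7, 291.4 and 285.9 in compound KO and 275.3, 303.5 and 290.3 in double KO libraries. Its ranges overlapped in the double KO comparison, with a log2 difference of -0.06 (95% interval -0.19 to 0.08), while the erythroid marker sum was higher in each double KO library than in each control. That difference was 0.013 with scaling by library totals. *Prdx3* (chromosome 19, 60852489 to 60863017), the mitochondrial member, was at 33.5, 34.1 and 35.1 in control, 37.8, 34.5 and 34.1 in compound KO and 31.0, 34.9 and 30.1 in double KO libraries. Its log2 difference was -0.10 in double KO (95% interval -0.28 to 0.08) and 0.05 in compound KO lenses (95% interval -0.15 to 0.25), or 0.0030 without compound KO replicate 1.

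*Cat* (chromosome 2, 103284194 to 103316185) varied least. It was at 63.8, 64.5 and 66.5 in control, 61.8, 64.3 and 66.1 in compound KO and 65.2, 63.4 and 66.8 in double KO libraries, a coefficient of variation of 2.5% over the 9. The 95% interval of its log2 difference between double KO and control lenses was -0.11 to 0.12. With scaling by library totals alone, *Cat* was 0.23 log2 units above control in compound KO lenses, where the median of all genes moved by 0.24. The total of compound KO replicate 1 was 728036, against 986861 and 1022858 in replicates 2 and 3. This scaling was not refitted without replicate 1.

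*Nqo1* (chromosome 8, 108113835 to 108129934), a quinone reductase often used as a readout of Nrf2, was low. Its values were 2.5, 2.7 and 2.6 in control, 7.7, 2.2 and 2.3 in compound KO and 2.2, 2.9 and 3.1 in double KO libraries. Only compound KO replicate 1, the library with the high non-lens markers, lay above 3.1. The log2 difference from control was 0.04 in double KO lenses (95% interval -0.28 to 0.37), and in compound KO lenses it was 0.33 with and -0.15 without compound KO replicate 1. The core was not found in its promoter window, and bases further from the start were not searched.

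*Sod1* (chromosome 16, 90017408 to 90027657) and *Txn1* (chromosome 4, 57934208 to 57956424) each lost nearly all of their value in 2 knockout libraries and held it in the other 7. *Sod1* was at 67.7, 68.6 and 69.8 in control, 6.1, 80.1 and 80.7 in compound KO and 0.0, 74.5 and 77.5 in double KO libraries. Apart from compound KO replicate 1 and double KO replicate 1, all 4 knockout libraries were above every control. Without double KO replicate 1, the double KO difference was 0.14 (limma adjusted p = 0.554), and without compound KO replicate 1 the compound KO difference was 0.22 (limma adjusted p = 0.245). With these libraries the log2 differences were -1.95 (SE 1.76, limma adjusted p = 0.776) and -0.95 (SE 0.98, adjusted p = 0.639).

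*Txn1*, the substrate of thioredoxin reductase, was at 50.2, 48.4 and 47.8 in control, 2.1, 47.7 and 49.4 in compound KO and 49.7, 51.2 and 4.2 in double KO libraries. The low libraries were compound KO replicate 1 and double KO replicate 3, and the other 7 lay between 47.7 and 51.2. The log2 difference between double KO and control lenses was -1.06 (SE 0.93, limma adjusted p = 0.771), and 0.047 without double KO replicate 3. Between compound KO and control lenses it was -1.34 (limma adjusted p = 0.568), and -0.0072 without compound KO replicate 1. Such drops also occurred in other genes. Of 5406 genes with a median of at least 20, 124 (2.29%) were under 10% of their median in at least 1 library. Each library, controls included, had between 14 and 30 of them. *Sod1* and *Txn1* each dropped in more than 1 library, so that share is not a like measure, and how unusual they are was not tested. The authors describe transcript-level counts, but the 15820 entries with a symbol carry 15803 different symbols, so nearly every symbol has 1 entry. *Sod1* and *Txn1* are each shown by 1 entry.

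**Figure D2:**
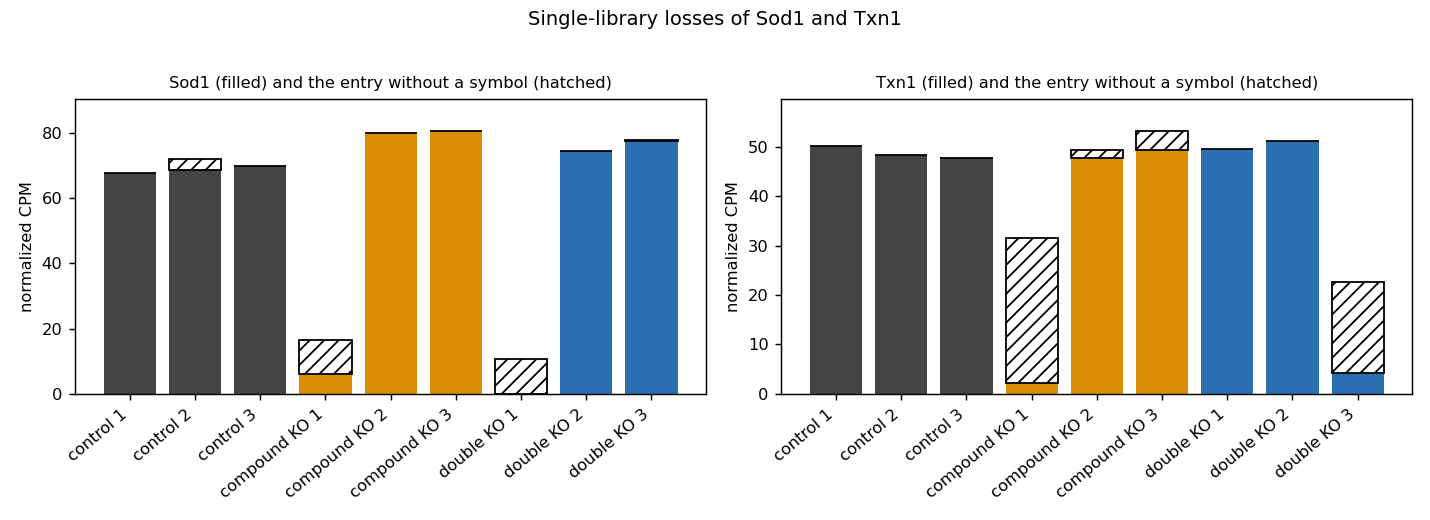
Normalized CPM of *Sod1* (left) and *Txn1* (right) per library (filled bars, colored by genotype), topped by the unnamed entry with the most negative correlation to it (hatched). The hatched entry reaches 10.6 for *Sod1* and 29.5 for *Txn1*, in libraries where the named entry is low.

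Between double KO and compound KO lenses, limma called 0 of the 10 genes against 0.0139% of all 14402 genes, and 0 had an unadjusted p of at most 0.05, against 4.87% of all genes. Accordingly 0 passed that p with 1.5-fold, where 3.06% of all genes did. Only *Prdx1* was above every compound KO library in all double KO libraries, against 8.17% of all genes. The log2 difference was -0.01 for *Srxn1* (95% interval -0.57 to 0.55), -0.12 for *Prdx6* (95% interval -0.58 to 0.35) and -0.27 for *Txnrd1* (95% interval -0.66 to 0.12). With intervals of this width, neither a difference between the knockouts nor its absence is shown.

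The other genes of these pathways were taken from lists by role. Of 23 thioredoxin and glutaredoxin relatives, limma called 0 in double KO against control lenses and 1 passed the unadjusted p with 1.5-fold (*Txnl4a*, a log2 difference of -1.19 at values under 10, named after its value was seen), with 10 above and 13 below 0. Among them *Tmx4*, a membrane thioredoxin-like protein, was at 116.7, 111.4 and 118.0 in control and between 85.6 and 103.9 in all 6 knockout libraries (double KO log2 difference -0.23, limma adjusted p = 0.265). *Nxn*, nucleoredoxin, the relative with the highest values, differed by -0.22 (limma adjusted p = 0.346). Of 4 methionine sulfoxide reductases, which repair oxidized methionine, 0 were called by limma, with 0 at an unadjusted p and 1.5-fold. *Msra* was at 0.0 in compound KO replicate 1 and 17.2 to 22.6 elsewhere, and *Msrb3* was at 0.2 in compound KO replicate 2 and 7.6 to 15.6 elsewhere. Of 2 superoxide dismutase relatives, *Ccs*, the copper chaperone of Sod1, and the mitochondrial *Sod2*, 0 were called by limma and 0 passed the unadjusted p with 1.5-fold.

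The sestrins, stress proteins that act with the peroxiredoxins, gave 2 of the calls. *Sesn3* was at 96.7, 108.0 and 110.5 in control, 76.1, 165.3 and 168.7 in compound KO and 174.9, 186.7 and 196.6 in double KO libraries. It rose in double KO lenses by 0.82 log2 units (SE 0.073, limma adjusted p = 0.0211), and the call was lost in all 6 fits that left out 1 library, where the adjusted p was 0.0522 to 0.0817. *Sesn1* was at 57, 57.4 and 62.0 in control, 35.3, 39.5 and 38.4 in compound KO and 34.7, 36.4 and 40.7 in double KO libraries, and compound KO replicate 1 lay with the other knockout libraries. It fell in the *Mafg*-/- libraries by 0.64 log2 units (SE 0.069, limma adjusted p = 0.0189), and the call was lost without control replicate 1, 2 or 3 or compound KO replicate 3 (adjusted p = 0.0767, 0.0909, 0.117 and 0.0591), and with library total scaling, where the log2 difference was -0.48 (0.257). A replicate block, a term for replicate number in the fit, also ended the *Sesn1* call (limma adjusted p = 0.0689). Of the 5 peroxiredoxin relatives and sestrins tested, limma called 1 in double KO against control lenses, with 3 above and 2 below 0. With the unadjusted p and 1.5-fold, 1 passed upward and 1 downward. *Prdx4* and *Prdx5* lay within 35.8 to 44.4 in all 9 libraries.

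Of 9 NADPH-supplying enzymes, limma called 1 in double KO against control lenses, against 0.361% of all genes, with 5 above and 4 below 0. With the unadjusted p and 1.5-fold, 2 passed, against 2.83% of all genes. Besides the called gene this was *Pgls*, named after its values were seen. It was at 13.1 to 39.6 in control, 10.7 to 66.4 in compound KO and 54.6 to 67.9 in double KO libraries. *Me1*, cytosolic malic enzyme, was at 31.4, 32.5 and 33.4 in control, 28.8, 53.6 and 47.8 in compound KO and 54.0, 55.6 and 58.3 in double KO libraries, a log2 difference of 0.77 (SE 0.055, limma adjusted p = 0.00934). *Tkt*, transketolase, the member with the highest values, differed by -0.10 (limma adjusted p = 0.615). Of 9 quinone and carbonyl reductases tested, limma called 0 and 0 passed the unadjusted p with 1.5-fold. *Ephx1*, microsomal epoxide hydrolase, was at 4.5 to 5.3 in control and 6.9 to 8.0 in all 6 knockout libraries (double KO log2 difference 0.54, limma adjusted p = 0.175). *Akr1a1*, an aldehyde reductase, differed by -0.08 (limma adjusted p = 0.752).

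The 9 heme and glutathione targets of the same regulators had a median log2 difference of 0.36 in double KO lenses, beside 0.011 over all genes, with 9 of 9 above 0. Of these, limma called 4, against 0.361% of all genes. *Hmox1*, which breaks down heme, was at 1.8, 1.2 and 3.5 in control, 3.0, 14.1 and 12.6 in compound KO and 24.9, 20.4 and 24.7 in double KO libraries (log2 difference 3.0, limma adjusted p = 0.0233). *Slc48a1*, a heme transporter, was at 30.5, 27.1 and 30.3 in control, 62.2, 146.1 and 143.9 in compound KO and 164.5, 166.5 and 163.1 in double KO libraries (2.45, limma adjusted p = 0.000379). *Gclm*, a subunit of the first enzyme of glutathione synthesis, was at 47.2 to 50.3 in control and 98.2 to 106.8 in double KO libraries (1.06, limma adjusted p = 0.0023). *Ftl1*, ferritin light chain, was at 608.4 to 686.4 in control and 1499.0 to 1853.7 in double KO libraries (1.35, limma adjusted p = 0.00929), and it has near-identical copies among which reads may be split. The erythroid marker sum was also higher in each double KO library, and its part in these values was not tested. Of 9 CNC-Maf regulators tested in double KO against control lenses, 5 were below and 4 above 0, and 3 lay below every control. The 2 that limma called, both lower, were *Mafg* and *Mafk*, the targeted genes. The *Mafk* call was lost without control replicate 1, 2 or 3 or double KO replicate 3 (limma adjusted p of 0.0612 to 0.0862) and with a pseudocount of 0.1 (0.149). *Nfe2l2*, which encodes Nrf2 and is named here after its values were seen, was at 29.0 to 31.4 in control and 9.5 to 25.7 in all 6 knockout libraries (double KO log2 difference -0.39, limma adjusted p = 0.251). *Sqstm1*, the member with the highest values, differed by 0.19 (limma adjusted p = 0.768). In double KO lenses the replicate block ended the calls of *Sesn3* (limma adjusted p = 0.0827), *Gclm* (0.0665) and *Mafk* (0.183). It also ended those of *Me1*, *Ftl1* and *Hmox1* (0.129 each), while *Slc48a1* stayed at 0.0302 and *Mafg* at 0.0436. Estimating the spread from all 9 libraries in 1 fit ended the calls of *Sesn3* (adjusted p = 0.738), *Me1* (0.494), *Gclm* (0.160), *Ftl1* (0.300) and *Hmox1* (0.138), while *Slc48a1* stayed at 0.0429. With 1 library left out, the call of *Hmox1* was lost without control replicate 1 or double KO replicate 1, 2 or 3 (limma adjusted p of 0.0804 to 0.108), that of *Ftl1* without control replicate 3 or double KO replicate 3 (0.0506 and 0.0503) and that of *Me1* without control replicate 3 (0.0506). *Slc48a1* was also called in the *Mafg*-/- libraries (log2 difference 2.16, limma adjusted p = 0.0496). That call was lost without any 1 library other than compound KO replicate 1 (adjusted p of 0.106 to 0.195 in 8 fits). It was also lost without the filter on low values (0.0524), with upper quartile scaling (0.0555) and with the replicate block (0.209).

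Compound KO replicate 1 was high in some of these genes and near control in others. Relative to the control mean it was 1.9-fold for *Txnrd1*, 1.74-fold for *Srxn1* and 1.99-fold for *Prdx6*, against 0.724-fold for *Sesn3*, 0.888-fold for *Me1*, 0.995-fold for *Gclm* and 1.14-fold for *Ftl1*. *Hmox1* was at 1.38-fold, below control replicate 3 at 1.62-fold, and *Slc48a1*, at 2.12-fold, was above all 3 of the first genes. In compound KO replicates 2 and 3, the same ratios were 1.38 and 1.33 for *Txnrd1*, 1.23 and 1.89 for *Srxn1* and 1.27 and 1.51 for *Prdx6*, against 1.57 and 1.61 for *Sesn3*, 1.65 and 1.47 for *Me1*, 1.34 and 1.8 for *Gclm* and 2.16 and 2.58 for *Ftl1*. Thus all 7 genes were above the control mean in those 2 libraries and in all 3 double KO libraries. Over the 9 libraries, Pearson's r of log2 values was 0.913 between *Txnrd1* and *Prdx6* 0.842 between *Srxn1* and *Prdx6* and 0.693 between *Txnrd1* and *Srxn1*. With *Slc48a1*, *Ftl1*, *Hmox1* and *Gclm* it was 0.487, 0.286, 0.294 and 0.15 for *Txnrd1*, 0.708, 0.639, 0.582 and 0.617 for *Srxn1*, and 0.602, 0.423, 0.478 and 0.393 for *Prdx6*. Without compound KO replicate 1, all 15 of these values lay between 0.724 and 0.914 over 8 libraries, as a description of libraries that share genotype. The genes correlated here were picked for differences between knockout and control in these same libraries. High values follow in large part from that choice, and shared regulation was not tested.

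**Figure D3:**
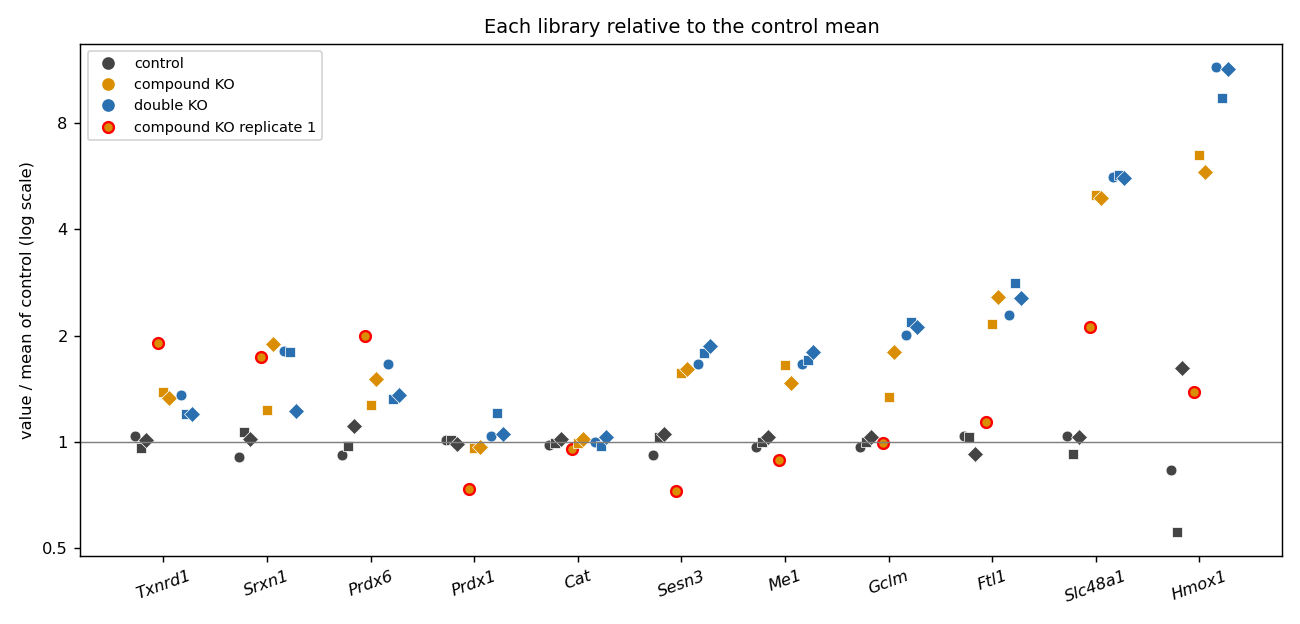
Value of each library divided by the control mean (log scale) for 5 of the 10 genes and 6 called genes of the neighboring lists, colored by genotype, with compound KO replicate 1 ringed in red. The ringed point is high for *Txnrd1*, *Srxn1* and *Prdx6* (1.74 to 1.99) and lies between 0.724 and 1.14 for *Sesn3*, *Me1*, *Gclm* and *Ftl1*, but it is at 1.38 for *Hmox1* and 2.12 for *Slc48a1*.

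The genes most like 4 of the members over the 9 libraries were named by Pearson's r of log2 values among 8151 genes with a mean of at least 10. Libraries share genotype and composition, so these are descriptions. *Txnrd1* was most like *Rorb* (0.987), *Lig1* (0.979), a DNA ligase, and *Atad5* (0.978), or 0.97, 0.99 and 0.947 without compound KO replicate 1. *Rorb*, a nuclear receptor of the retina, was at 8.0 to 13.1 in control, 119.5 in compound KO replicate 1 and 24.8 to 45.0 in the other knockout libraries. *Srxn1* was most like *Nufip1* (0.92), *Obfc1* (0.914) and *Nr2c1* (0.901), or 0.918, 0.904 and 0.907 without compound KO replicate 1. *Prdx1* was most like *Rpl30-ps8* (0.987), *Slc38a4* (0.986) and *Anapc16* (0.983), or 0.956, 0.969 and 0.939 without compound KO replicate 1. *Nqo1* was most like *Ahcyl2* (0.977), *Akirin2* (0.973) and *Kifap3* (0.97), and without compound KO replicate 1 these were 0.709, 0.65 and 0.662.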

How the data were processed

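RNA of E16.5 lenses from 9 libraries was sequenced as strand-specific paired reads. Per the labels and methods, the authors used Trimmomatic, HISAT2 (genome mm39), StringTie for counts of transcripts, Cufflinks and edgeR. Tool versions are not given in the sources used here. The deposited values are a normalized signal, CPM scaled by 1 composition factor per library, rounded to 0.1 (read from totals with a geometric mean of 1000012). Libraries were grouped by labelled genotype. Nothing states that replicates came from separate litters, so p-values measure the spread between these libraries. Log2(value + 1) was compared by limma 3.58.1 (R 4.3.3; intensity trend, two-sided, Benjamini-Hochberg adjustment over all genes) for entries with a symbol and at least 1 in at least 2 libraries of the fit. A call needed an adjusted p no higher than 0.05 and 1.5-fold. The pseudocount draws low genes towards 0. The test was checked on simulated data with independent normal noise. These data held no single-library drop and no library that stands apart, so such cases were not checked. The 10 genes, the 18 lists (9 pathway, 9 marker) and the tests were chosen with earlier results of these data known. Named genes were all 10, list genes called in any comparison, or else each list's smallest double KO p and highest mean, and the 3 genes most like *Txnrd1*, *Srxn1*, *Nqo1* and *Prdx1*. *Prdx4*, *Prdx5*, *Myh8*, *Cryab*, *Sptb*, *Nfe2l2*, *Txnl4a* and *Pgls* were named after their values were seen. Positions and transcript lengths come from GENCODE M39 on GRCm39. Alternatives were a pseudocount of 0.1, other filters, scalings and fits, and each library left out. Count models and the authors' protein data were not used here. Python 3.11.15 was used for descriptions.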

Additional observations from a re-analysis of the deposited data

Results flagged for a closer look

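Among the 6 *Mafg*-/- libraries, compound KO replicate 1 lay far from the others in 2 of the 10 genes tested: *Txnrd1* at 97.7 normalized CPM, where the next was 70.8, and *Nqo1* at 7.7, where the next was 3.1. A value was taken as far where its gap to the next was more than 0.625 of the range of the 6. Chance gives about 1 such value in 20 groups if each group comes from 1 normal distribution. Here the 6 libraries hold 2 genotypes and the 10 genes share them, so that rate need not apply. The same library has the high mesenchyme, retina and muscle markers, and their part in these values was not tested.

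Among 6193 entries without a symbol, which the comparisons leave out, 1 ran most opposite to *Sod1* over the 9 libraries (Pearson's r -0.971), at 10.3 in compound KO replicate 1 and 10.6 in double KO replicate 1 and at most 3.6 elsewhere. The sum of the 2 entries was still 16.4 and 10.6 in those libraries, against 67.7 to 80.7 in the others. The entry most opposite to *Txn1* (r -0.964) was at 29.5 in compound KO replicate 1 and 18.5 in double KO replicate 3, at most 3.9 in the other knockout libraries and 0.0 in each control, and the sums were 31.6 and 22.7, against 47.8 to 53.3 elsewhere. Whether these entries belong to *Sod1* or *Txn1* was not tested.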

How the results depend on the processing

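No member was called in any of the 4 comparisons under any alternative (limma). Of the other values, 289 kept their direction and side of the threshold when 1 library was left out, 24 changed direction and 32 lost a call. Under other settings these were 362, 11 and 18. Members past an unadjusted p and 1.5-fold in double KO against control lenses (1) were 2 with library total scaling, 3 with no 1.5-fold threshold and 0 to 2 with 1 library left out, and in compound KO lenses (3) they were 0 to 3. For *Mafg*-/- libraries together (1), they were 2 with a pseudocount of 0.1, 3 with library total scaling, 3 with no 1.5-fold threshold and 0 to 2 with 1 left out. Members without overlap between double and compound KO (1) were 0 with library total scaling and 1 to 2 with 1 left out, alternatives chosen after seeing the data.

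Library total scaling shifted the median log2 difference of all genes to 0.073 in double KO, 0.244 in compound KO, -0.172 in double against compound KO and 0.164 in *Mafg*-/- libraries. It turned *Prdx2* to 0.013 in double KO, *Prdx1* to 0.078, *Prdx2* to 0.135 and *Cat* to 0.234 in compound KO, *Prdx2* to -0.122 and *Cat* to -0.161 in double against compound KO, and *Prdx1* to 0.139, *Prdx2* to 0.074, *Prdx3* to 0.135 and *Cat* to 0.154 in *Mafg*-/- libraries. Upper quartile scaling turned *Srxn1* to 0.0025 in double against compound KO. With scaling by library totals, genes past the unadjusted p and 1.5-fold were 281 higher and 137 lower in double KO (otherwise 225 and 175), 748 and 91 in compound KO (547 and 219), 67 and 332 in double against compound KO (123 and 317), and 357 and 71 in *Mafg*-/- libraries (237 and 135).

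With 1 library left out, directions turned within these ranges of log2 difference. In double KO against control, they were -1.617 to 0.047 for *Txn1*, -0.027 to 0.152 for *Nqo1*, -0.014 to 0.023 for *Cat* and -3.004 to 0.144 for *Sod1*. In compound KO, they were -0.147 to 0.574 for *Nqo1*, -0.042 to 0.0059 for *Cat* and -1.538 to 0.224 for *Sod1*. In double against compound KO, they were -1.048 to 1.387 for *Txn1*, -0.182 to 0.167 for *Srxn1*, -0.263 to 0.057 for *Prdx6*, -0.529 to 0.192 for *Nqo1*, -0.0016 to 0.046 for *Cat* and -2.169 to 1.093 for *Sod1*. In *Mafg*-/- libraries, they were -0.083 to 0.059 for *Prdx1*, -0.057 to 0.0068 for *Prdx3*, -0.032 to 0.257 for *Nqo1* and -0.020 to 0.0095 for *Cat*. The cause was not tested.

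Whether the replicate numbers pair the libraries is not given in the sources used here. Same-number correlations were -0.106 to 0.216, which cannot settle it without different-number pairs beside them. With the replicate block, 0 members were called, *Txnrd1* in double KO had an adjusted p of 0.412, and calls over all genes went from 51 to 10 in double KO, from 2 to 0 in double against compound KO and from 16 to 0 in *Mafg*-/- libraries. Without a block, 1 fit of all 9 libraries called 21 and 5 in the first pair of these and 2 (otherwise 0) in compound KO, library total scaling called 25 in *Mafg*-/- libraries, a pseudocount of 0.1 called 1 and a filter of 1 in all libraries called 0 in double against compound KO, and leaving out 1 library called 22 to 47 in double KO, 0 to 13 in compound KO, 1 to 6 in double against compound KO and 0 to 71 in *Mafg*-/- libraries. Genes past the unadjusted p and 1.5-fold went from 440 to 744 with the replicate block in double against compound KO, and with 1 library left out they were 253 to 1142 there and 382 to 1620 (otherwise 766) in compound KO. Depth is unknown, so how far it limits low genes such as *Nqo1* cannot be stated.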
